A study of Arabidopsis thaliana with 8 samples.

Results

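The subject is 626 transposable element loci of Arabidopsis thaliana whose RNA was highest 12 h after the end of a long heat treatment. They were chosen from 31189 element loci in a table of 64512 loci by 3 conditions. The highest of the 4 group means had to be the one at 12 h of recovery, that mean had to be at least 3, and that mean plus 1 had to be at least 2 times the control mean plus 1. These 626 loci are called the 12 h loci. By the matching rule, 1160 element loci peaked at the end of the heat and 136 after 84 h of recovery. Because the rule used the means of all 4 groups, the levels at 12 h and their ratio to the control are a description of the chosen loci, with no test.

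All 8 libraries came from wild-type seedlings of the Columbia ecotype, 7 days old per the series text, 2 libraries to each of 4 groups. Unheated controls are called CTRL. The long heat stress of LHS was 30 h at 37 °C, LHSR12 seedlings had 12 h at 22 °C after that heat, and LHSR84 seedlings had 84 h at 22 °C after it. Libraries were strand-specific and made from total RNA isolated with TRIzol. Separate cultures are not stated for the 2 libraries of a group, so the spread between them may be technical. The p-values given rest on this spread, pooled over the 4 groups and moderated across loci. The age of the recovering plants at harvest and the time of day are not given either, and neither can be told apart from heat and recovery.

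Transposable elements are mobile DNA sequences that plants keep silent with DNA methylation, methylation of histone H3 and small RNAs. MET1 copies CG methylation onto new DNA, CMT2 and CMT3 methylate other cytosine contexts where histone H3 carries a repressive methyl mark, and the remodeller DDM1 gives these enzymes access to compacted chromatin. A second route, RNA-directed DNA methylation, uses the polymerases Pol IV and Pol V and small RNAs to guide the methyltransferase DRM2. Heat is known to raise the RNA of some silenced elements in Arabidopsis. Elements lie most densely around the centromeres.

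The deposited values are reads per locus divided by 1 factor per library, called scaled reads here. They are not corrected for length, so levels are compared within a locus and not between loci. Recovered reads at gene loci numbered 18.9 to 28.3 M (M for 1e6) in 7 libraries. Values of LHS replicate 1 were whole multiples of 1.001, which was judged too close to 1 to recover its reads, so it was left out. All element loci together held 0.586% and 0.627% of the scaled reads in CTRL, 3.58% and 4.39% in LHS, 2.15% and 1.76% in LHSR12, and 1.1% and 0.991% in LHSR84. Markers of shoot (RBCS1A, LHCB1.1) and root (SCR, SHR) had reads in all 8 libraries. The 4 shoot markers summed to between 90940 and 387762 scaled reads a library, lowest in LHS, and the 6 root markers to between 1222 and 3389, also lowest in LHS. RBCS1A made up most of the shoot sum. LHCB1.1 was lowest in LHSR84, at 678 and 972, against 99563 and 44219 in CTRL. STM had 113 and 96.7 in LHSR12 and 70.4 and 55.8 in CTRL. WUS was at 0 in CTRL and LHSR84 and at no more than 7.10 in the other groups. In LHSR12, SCR and SHR were called higher than in CTRL (log2 differences 0.87 and 0.54) and the other 4 root markers lower (CASP1 -1.67, CASP2 -1.34, IRT1 -7.14, WER -2.04). The 3 seed markers summed to 30.6 and 13.9 in LHSR12 and to 150 and 1191 in CTRL, and OLEO1 was the one called lower. Of 3 sperm and pollen markers, HTR10 was at 0 in every library and DUO1 at no more than 3, while GEX2 lay between 38.3 and 93.3, lowest in LHSR12. The part of tissue makeup in the element levels was not tested. In whole seedlings, more cells with RNA of a locus and more RNA per cell cannot be told apart.

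The 12 h loci summed to 4618 and 5617 scaled reads in CTRL, 9138 and 9448 in LHS, 31885 and 27407 in LHSR12, and 10815 and 9786 in LHSR84. One locus, AT5TE25390, was a large part of these sums, and without it they were 2574 and 2824 in CTRL, 7245 and 7653 in LHS, 26610 and 22230 in LHSR12, and 6424 and 6256 in LHSR84. With or without it, the LHS and LHSR84 libraries lay above CTRL and below LHSR12. The 12 h loci made up 3.06% and 3.74% of all element reads in CTRL, 0.968% and 0.763% in LHS, 6.67% and 7.05% in LHSR12, and 4.26% and 4.32% in LHSR84. The low share in LHS is set by the rule, which leaves out every element that was highest in LHS.

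Most of the loci had no reads in control seedlings. Loci with at least 1 read numbered 172 and 227 of 626 in CTRL, 397 and 410 in LHS, 624 and 614 in LHSR12, and 346 and 365 in LHSR84. These counts depend on depth, which was greatest in LHSR12. Reads at gene loci numbered 18.9 and 22.2 M in CTRL, 28.3 and 28.1 M in LHSR12, and 19.3 and 23.0 M in LHSR84. The median 12 h locus had 0 scaled reads in both CTRL libraries, 2.00 and 2.03 in LHS, 11.5 and 9.28 in LHSR12, and 1.18 and 0.986 in LHSR84. Of the 626, 308 had an LHSR12 mean below 10, 261 a mean between 10 and 100, and 57 a mean of 100 or more.

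**Figure D1:**
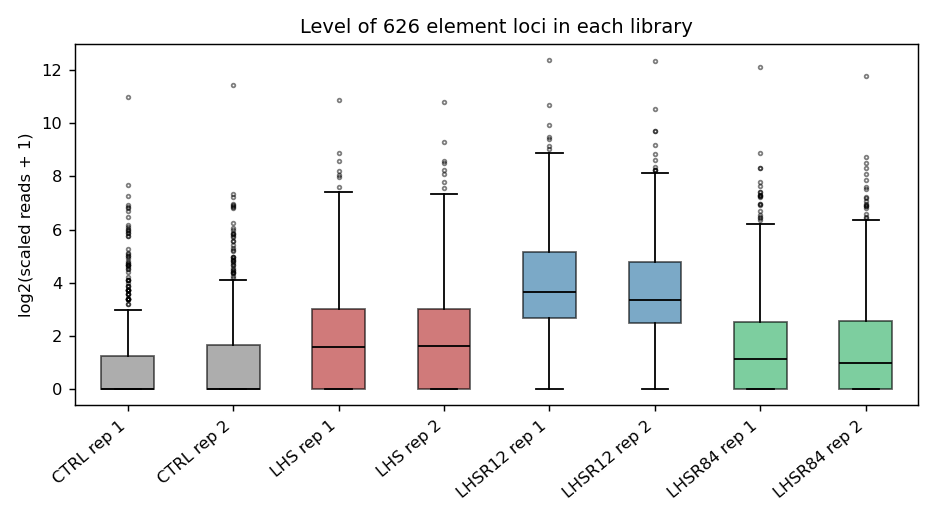
Level of the 626 loci in each library as log2(scaled reads + 1), with the box from the first to the last quartile, the line at the median, whiskers reaching 1.5 times the box height at most, and points beyond them. The LHSR12 medians stand above those of the other 6 libraries, which the choice of loci sets, and the CTRL medians are at 0.

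Both LHSR12 libraries lay above all 6 others for 421 of the 626 loci, or 67.3%. Among the 590 with a mean of at least 1 over all libraries the share was 66.1%, against 14.8% of all such loci and 14.5% of such element loci, and the rule sets this difference. This held for 55.2% of the loci with an LHSR12 mean below 10, for 78.5% of those between 10 and 100 and for 80.7% of those at 100 or more. Replicate 1 of LHSR12 was higher than replicate 2 at 392 loci and lower at 234, and the 2 libraries differed more than 2-fold at 226. When the rule was applied with LHSR12 replicate 1 alone and again with replicate 2 alone, 418 of the 626 loci were chosen both times. In 14 loci, 1 of the 2 LHSR12 libraries had no read.

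The values of the loci nearest each threshold are as follows. Just inside the minimum level, AT2TE52260, AT3TE51930 and AT3TE54865 each had an LHSR12 mean of 3.06, while just outside it AT1TE54265, AT1TE52675 and AT3TE51460 had means of 2.71, 2.70 and 2.70. At the ratio threshold, AT4TE02340, AT2TE02680 and AT2TE66655 had ratios of 2.01, 2.02 and 2.02, and AT1TE75910, AT3TE27175 and AT5TE68680 were left out at 1.98, 1.98 and 1.97. For the peak group, AT1TE51065 was kept with 33.8 scaled reads both in LHSR12 and in LHS, and AT5TE78565 and AT4TE31310 were kept by similar margins. AT2TE13060 was left out with 32.7 in LHSR12 and 32.8 in LHS, as were AT2TE25020 and AT2TE41170 by similar margins. In all, 462 loci failed only the minimum level, 175 only the ratio and 403 only the peak group.

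Ratios of LHSR12 to CTRL, each with 1 added to both means, ran from 2.01 to 302 with a median of 6.37. At the upper end stood AT2TE25440, which had 0 and 1.07 scaled reads in CTRL, 0 and 0 in LHS, 473 and 452 in LHSR12, and 171 and 365 in LHSR84. It was silent at the end of the heat and had RNA in both recovery groups, whose libraries lay far above all CTRL and LHS libraries. With a single CTRL read, its LHSR12 level was 773 times the CTRL level, with a counting interval of 138 to 30547. That interval, like the others below, is an exact Clopper-Pearson 95% interval and covers counting error only.

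AT4TE19655 had 1.35 and 2.15 scaled reads in CTRL, 2.00 and 7.10 in LHS, 569 and 391 in LHSR12, and 221 and 192 in LHSR84. Its LHS and CTRL libraries overlapped, and the recovery libraries stood above both. AT2TE82905 had 2.71 and 0 in CTRL, 0 and 0 in LHS, 379 and 271 in LHSR12, and 3.54 and 14.8 in LHSR84. It shared the silence at the end of the heat, but at 84 h only 2.82% of its 12 h mean was left, against 43.0% for AT4TE19655 and 58.0% for AT2TE25440.

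Other loci with a large ratio were already high at the end of the heat. AT1TE49850 had no reads in CTRL, 249 and 298 scaled reads in LHS, 280 and 281 in LHSR12, and 7.09 and 5.92 in LHSR84. Its LHSR12 level was at least 77.0-fold higher than a CTRL floor of 3 reads per library. AT5TE42135, also with no CTRL reads, had 161 and 221 in LHS, 300 and 220 in LHSR12, and 4.73 and 2.96 in LHSR84. At both loci the LHS and LHSR12 libraries overlapped, and almost all RNA was gone at 84 h. AT5TE46210 was without reads in CTRL and had 194 and 156 in LHS, 338 and 151 in LHSR12, and 0 and 0.986 in LHSR84. AT4TE19150, AT4TE16400, AT1TE52125 and AT2TE22520 likewise had no CTRL reads, with LHS means of 94.7, 65.5, 60.5 and 44.4 that were 44.3%, 33.3%, 32.2% and 29.1% of their LHSR12 means. AT1TE42205, with 1 CTRL read in all, had an LHS mean at 8.27% of its LHSR12 mean.

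The loci with the most reads in LHSR12 were in part those with reads in CTRL. AT5TE25390 had 2044 and 2792 scaled reads in CTRL, 1893 and 1795 in LHS, 5275 and 5177 in LHSR12, and 4392 and 3530 in LHSR84. AT5TE31350 had 52.8 and 41.8 in CTRL, 42.1 and 31.4 in LHS, 1655 and 1493 in LHSR12, and 170 and 144 in LHSR84. Neither was higher in LHS than in CTRL, and LHSR84 libraries lay above both groups at each. AT3TE43200 had 32.5 and 35.4 in CTRL, 377 and 627 in LHS, 686 and 582 in LHSR12, and 73.3 and 80.9 in LHSR84. Its LHS and LHSR12 libraries overlapped. AT1TE79350 had 205 and 159 in CTRL, 476 and 382 in LHS, 979 and 845 in LHSR12, and 318 and 317 in LHSR84. AT3TE76010 had 52.8 and 65.4 in CTRL, 162 and 94.3 in LHS, 715 and 844 in LHSR12, and 475 and 426 in LHSR84. At both loci every heated or recovering library lay above CTRL, and no 2 groups overlapped. AT2TE24520 averaged 344 ± 21.1 in LHSR12 and 329 ± 52.8 in LHS (SD, n = 2 each) with overlapping libraries, and its LHSR84 libraries, at 156 and 133, overlapped the CTRL libraries, at 152 and 147.

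**Figure D2:**
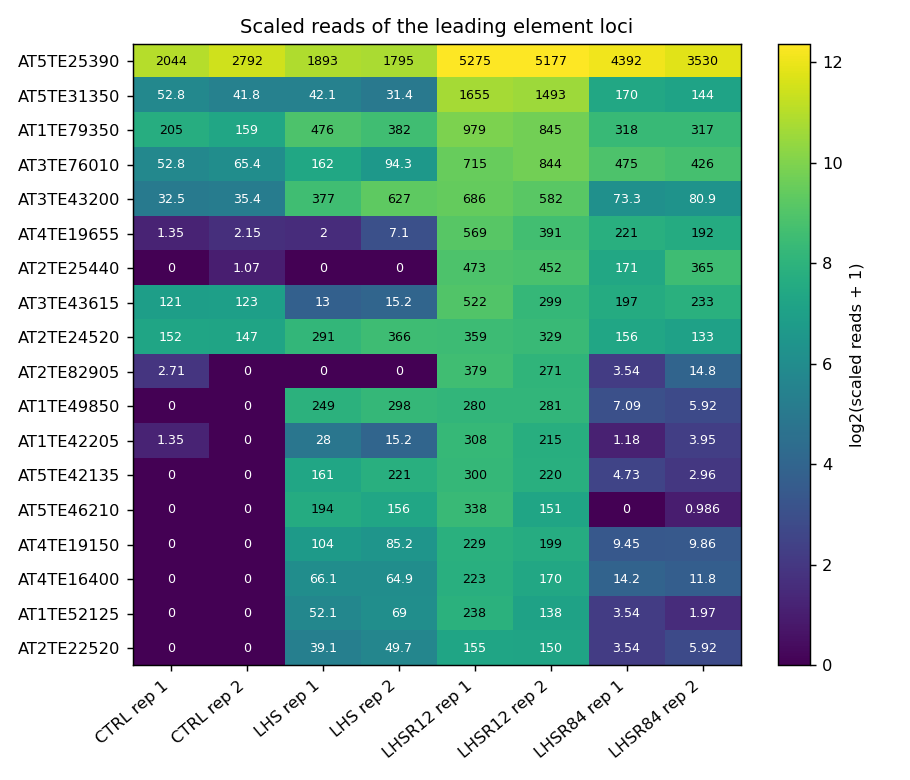
Scaled reads of the 10 loci with the highest LHSR12 mean and the 10 with the largest ratio to CTRL (18 loci in all, as 2 are in both), in each library, with colour giving log2(scaled reads + 1). Rows such as AT2TE25440 and AT2TE82905 are dark up to the end of the heat, while rows such as AT1TE49850 and AT5TE42135 are as bright in LHS as in LHSR12 and dark at 84 h.

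The time course around the peak therefore differed widely between the loci named above. At the 308 loci with an LHSR12 mean below 10, the median LHS and LHSR84 means were 0.507 and 0.493 scaled reads. The classes of such loci below rest on few reads, and depth was greatest in LHSR12. The LHS mean was at least 50% of the LHSR12 mean at 136 loci, between 10% and 50% at 244 and under 10% at 246. The LHSR84 mean was at least 50% of the LHSR12 mean at 107 loci, between 10% and 50% at 201 and under 10% at 318. Both neighbouring time points were under 10% at 142 loci, and 69 of the 626 had no read in any of the 6 libraries outside LHSR12. A high level at heat end with a low one at 84 h (at least 50% and under 10%) was seen at 59 loci, and the opposite at 32. At 28 loci both neighbours were at or above 50%.

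**Figure D3:**
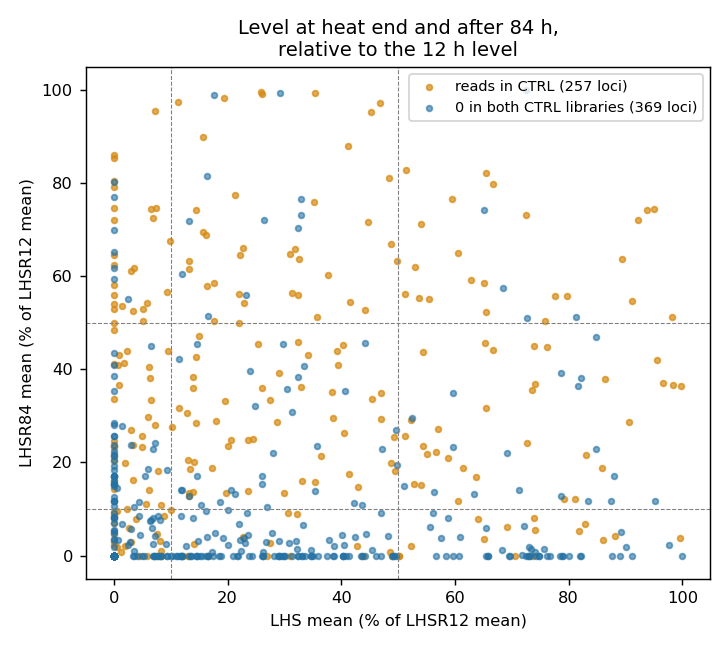
Each point is 1 of the 626 loci, with the LHS mean and the LHSR84 mean on the horizontal and vertical axes, both as % of the LHSR12 mean; dashed lines mark 10% and 50%. Loci with no CTRL reads (blue) lie mostly along the bottom, while loci with CTRL reads (orange) fill the range.

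The comparison of LHSR84 with LHS asks whether RNA was higher late in recovery or at the end of the heat. The rule set no order between these groups, but it held both means below the LHSR12 mean. It was tested with limma across 27638 loci with a mean of at least 1, of which 590 were 12 h loci, with Benjamini-Hochberg adjustment over all of them and a threshold of 0.05. LHSR84 was higher than LHS at 81 of the 590 (13.7%) and lower at 131 (22.2%). Across all loci tested 32.1% were higher and 34.8% lower, and across the 3014 element loci tested 15.8% were higher and 37.7% lower. The median log2 difference was -0.12 over the 12 h loci, -0.05 over all loci and -0.65 over element loci. The rule leaves out elements highest in LHS or in LHSR84, and loci could pass the filter through LHSR12 reads alone. AT2TE18885, for example, was tested with no reads in LHS or LHSR84. The shares called among the 12 h loci are therefore partly set by the choice, and they are a description beside those of other loci. EdgeR on the recovered reads of 7 libraries had only 1 LHS library, so its counts are not given here. With a minimum mean of 3, which left 360 of the 12 h loci to test, 70 higher and 102 lower calls were kept. A locus that an alternative did not test counts below as not called there. Of the limma calls, 36 higher and 61 lower loci were also called in each of 16 alternatives.

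Among the loci higher in LHSR84 than in LHS, AT2TE25440 had the largest difference, a log2 difference of 7.97 (SE 0.50, limma adjusted p = 3.26e-06), followed by AT4TE19655 at 5.39 (SE 0.49, limma adjusted p = 2.26e-05). AT3TE43610 had 158 and 149 scaled reads in LHSR84 and 4.01 and 4.06 in LHS, a log2 difference of 4.94 (SE 0.36, limma adjusted p = 6.44e-06). AT5TE48725 had 21.3 and 42.4 in LHSR84 and 1.00 and 0 in LHS, and AT3TE65325 had 124 and 116 in LHSR84 and 6.01 and 4.06 in LHS. At all 5 loci the LHSR84 libraries lay above the LHS libraries without overlap.

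Lower levels in LHSR84 than in LHS were largest at AT5TE46210, with a log2 difference of -6.96 (SE 0.52, limma adjusted p = 8.06e-06). AT4TE22775 had no reads in LHSR84 and 58.1 and 36.5 scaled reads in LHS, and AT3TE55340 had 0 and 0.986 in LHSR84 and 41.1 and 54.8 in LHS. AT5TE42135 and AT1TE49850 differed by -5.32 (SE 0.39) and -5.19 (SE 0.33) on the log2 scale, with limma adjusted p = 6.97e-06 and 3.18e-06. The direction and call of these 10 loci were the same under each of the 16 alternatives.

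Differences of LHS from CTRL are a description, since the rule used the CTRL mean. By limma, 187 of the 590 loci (31.7%) were higher in LHS than in CTRL and 31 (5.25%) lower, where 35.4% of all loci tested were higher and 31.1% lower, and 40.2% and 14% of element loci. The largest rises were at AT1TE49850 (log2 difference 8.10), AT5TE42135 (7.57), AT5TE46210 (7.45), AT5TE43665 (6.59) and AT4TE19150 (6.57). AT5TE43665 had 148 and 128 scaled reads in LHS and 0 and 1.07 in CTRL.

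Some of the 12 h loci had less RNA at the end of the heat than before it, and both LHS libraries lay below both CTRL libraries at 50 loci, all of them tested. That is 8.47% of the 590, against 37.9% of all loci tested and 20.6% of element loci. AT3TE65325 had 6.01 and 4.06 scaled reads in LHS and 103 and 116 in CTRL, and its LHSR12 libraries then reached 301 and 280. AT5TE50260 had 0 and 0 in LHS, 12.2 and 26.8 in CTRL, and 173 and 42.5 in LHSR12. AT1TE54805 had 0 and 0 in LHS, 9.48 and 11.8 in CTRL, and 28.3 and 27.1 in LHSR12. The LHS and CTRL libraries of these 3 loci did not overlap, and neither did those of AT3TE43610 and AT3TE43605, the others among the 5 largest falls.

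After 84 h of recovery some of the loci were still above CTRL. These differences are again a description, since the rule used the CTRL mean and favoured loci where it was low. The shares above and below CTRL are therefore partly set by the choice. LHSR84 was called higher than CTRL at 67 of the 590 loci (11.4%) and lower at 2 (0.339%), where 8.59% of all loci tested were higher and 4.87% lower, and 5.71% and 1.13% of element loci. Without LHSR84 replicate 1 the count of higher loci was 33, and without LHSR84 replicate 2 it was 38. Of the 67, 13 were called in each of the 16 alternatives, and of the 2, 0 were. Both LHSR84 libraries lay above both CTRL libraries at 197 of the 590 (33.4%), against 25.3% of all loci tested and 22.5% of element loci. Of the 626, 201 had no read in either LHSR84 library. AT3TE76010 differed from CTRL by 2.91 on the log2 scale in LHSR84 (SE 0.26) and AT5TE31350 by 1.71 (SE 0.22), both with libraries that did not overlap. AT1TE49850, with 7.09 and 5.92 in LHSR84, was still above the 0 reads of CTRL. For the contrasts that the rule used directly, LHSR12 was called higher than CTRL at 468 loci (24.8% of all loci tested, 28.6% of element loci) and higher than LHS at 341 (31.1% and 20.9%), and LHSR84 was called lower than LHSR12 at 335 (19.5% and 20.7%), from which nothing is read.

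The rule used no position. Element identifiers hold the chromosome digit and, by the convention of the annotation, a number that ascends along the chromosome, so the order of identifiers was used as a coarse position. It gives no distance in bases. The 12 h loci numbered 133, 122, 138, 104 and 129 on chromosomes 1 to 5, and the 590 tested among them were 19.1, 20.2, 21.2, 20.1 and 17.8 per 100 element loci tested on those chromosomes. When each chromosome's element identifiers were divided into 10 equal parts, the middle parts 4 to 7, chosen with the values known, held 276 of the 626 (44.1%) and 43.1% of the 590 tested. They held 35.9% of the 1160 loci that peaked in LHS, 29.8% of the 3014 element loci tested and, by construction, 40% of all element loci. On each chromosome the share in parts 4 to 7 was higher for the tested 12 h loci (39.1% to 50.8%) than for all tested element loci (25.5% to 31.9%).

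Within the 12 h loci, position in that order went with the level in control seedlings and late in recovery. Of the 369 with no CTRL reads, 208 (56.4%) were in parts 4 to 7, against 68 (26.5%) of the 257 with CTRL reads. Of the 318 whose LHSR84 mean was under 10% of the LHSR12 mean, 190 (59.7%) were there, against 22 (20.6%) of the 107 that kept at least 50%. The level at the end of the heat showed no such grading, with 48.5%, 42.2% and 43.5% in parts 4 to 7 for loci whose LHS mean was at least 50%, between 10% and 50% and under 10% of the LHSR12 mean. The 3 LHSR84 classes had median LHSR12 means of 14.6, 10.03 and 9.63 from the highest to the lowest share kept. The classes overlap with those by CTRL reads, as 258 of the 318 and 23 of the 107 had no CTRL reads. Neighbouring loci may share reads, so these shares are given with no test.

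**Figure D4:**
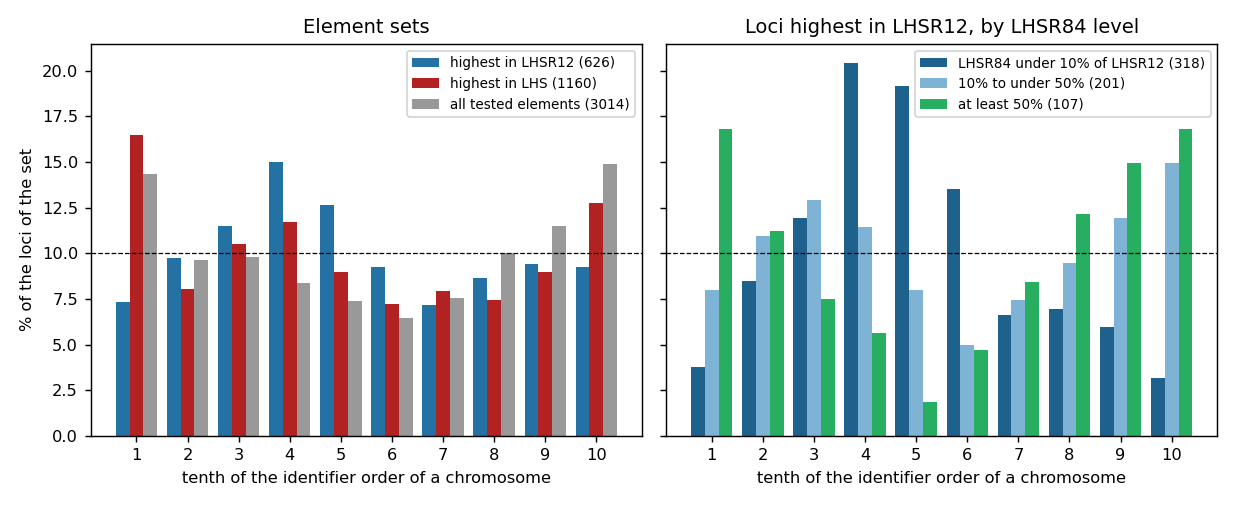
Share of loci (%) in each of 10 equal parts of the element identifier order of a chromosome, pooled over 5 chromosomes; the dashed line is the 10% of all element loci in each part. Left, the 12 h loci are most frequent in part 4, at 15.0%; right, 12 h loci with little RNA left at 84 h crowd in parts 4 and 5 (20.4% and 19.2%), and those that kept at least 50% are rare there (5.61% and 1.87%).

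Some of the 12 h loci were neighbours. In the table's identifier order 107 of the 626 (17.1%) stood in 47 runs of at least 2, against 32.2% of the loci that peaked in LHS and 40.3% of tested element loci. A larger set holds more neighbours by its size alone. The shares are not corrected for this, so they do not show whether the 12 h loci are more or less scattered than the other sets. The longest run held 5 loci, AT3TE43605, AT3TE43610, AT3TE43615, AT3TE43620 and AT3TE43630. AT3TE43615 had 121 and 123 scaled reads in CTRL, 13.0 and 15.2 in LHS, 522 and 299 in LHSR12, and 197 and 233 in LHSR84. AT3TE43605 had 13.5 and 8.58 in CTRL, 0 and 0 in LHS, 64.4 and 18.6 in LHSR12, and 5.91 and 10.8 in LHSR84. All 5 were lower in both LHS libraries than in both CTRL libraries and higher in LHSR12 replicate 1 than in replicate 2, by as much as 93.5 against 23.2 at AT3TE43620. The LHSR84 means were 154 and 215 at AT3TE43610 and AT3TE43615, beside CTRL means of 88.1 and 122. At AT3TE43605, AT3TE43620 and AT3TE43630 they were 8.38, 17.3 and 7.09, beside CTRL means of 11.1, 25.1 and 7.00. None of the 5 was called different from CTRL in LHSR84. Of the runs of 4, the loci AT2TE18885 to AT2TE18900 had reads only in LHSR12, at most 14.6, and AT2TE18900 had none in replicate 2. In the run from AT5TE42350 to AT5TE42365, AT5TE42355 had 43.1 and 100 in LHS and 98.1 and 62.6 in LHSR12, while its neighbours AT5TE42360 and AT5TE42365 had no LHS reads.

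The genes that keep elements silent were examined beside the 12 h loci in a list of 56 genes, all of them tested. Against CTRL, 9 of the 56 were called higher and 15 lower in LHSR12, where 24.4% of gene loci were higher and 21.7% lower. In LHS, 28 were higher and 10 lower (34.8% and 33.2% of gene loci), and in LHSR84, 3 were higher and 0 lower (8.94% and 5.32%). The list was chosen with earlier results of these data known. Among its groups, the 10 genes that maintain methylation had the most falls in LHSR12. Of these, 7 were called lower in LHSR12 than in CTRL and 0 higher, while in LHS 5 were higher and 2 lower and in LHSR84 none was called. The count of 7 changed with the samples fitted, as it was 3 without either LHSR12 library, 5 without either LHS library or CTRL replicate 2, and 2 when only LHSR12 and CTRL were fitted.

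MET1, which maintains CG methylation, had 1434 and 1264 scaled reads in LHSR12 and 1922 and 2455 in CTRL, a log2 difference of -0.69 (SE 0.14, limma adjusted p = 0.00358). CMT3 had 690 and 783 in LHSR12 and 1040 and 1665 in CTRL, and CMT2 had 732 and 575 in LHSR12 and 973 and 1159 in CTRL. VIM1, a methyl-DNA binding cofactor of MET1, had 659 and 653 in LHSR12, 4786 and 5242 in LHS, and 1040 and 1519 in CTRL. The LHSR12 libraries lay below both CTRL libraries at each of these genes. DDM1 had 497 and 473 in LHSR12 and 604 and 957 in CTRL, a log2 difference of -0.65 (SE 0.20, limma adjusted p = 0.0293) that missed the threshold in 7 of 16 alternatives. CMT3, whose LHS call was also lost in 5 alternatives, missed it in 5 of them and CMT2 in 2. VIM2 and VIM3, which complete the 7, differed by -1.16 and -0.77 on the log2 scale. VIM2 is uncertain, as it has near-identical copies, and VIM3 was named after its values were seen.

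**Figure D5:**
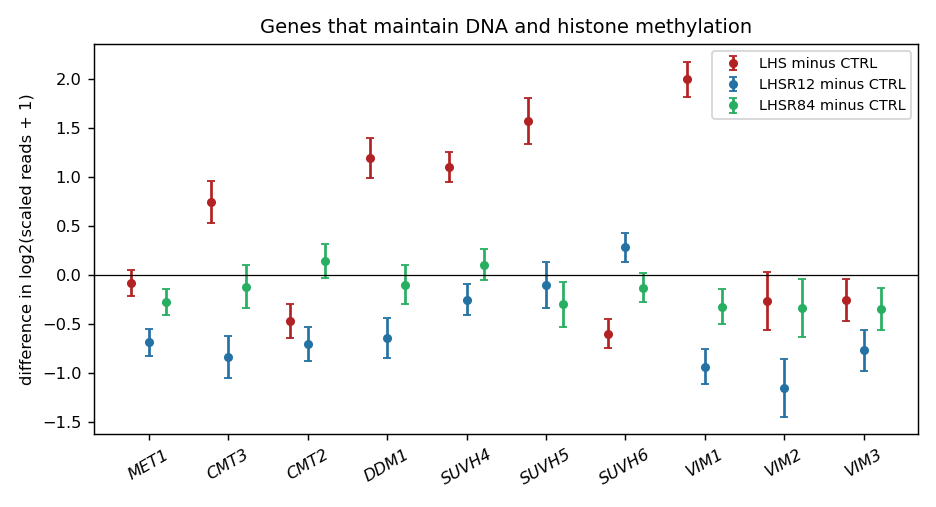
Difference from CTRL in log2(scaled reads + 1) for the 10 maintenance genes in LHS, LHSR12 and LHSR84, with bars of 1 SE from the limma fit. In LHSR12, 8 points other than SUVH5 and SUVH6 lie below 0 by more than 1 SE, and VIM1, DDM1, CMT3, SUVH4 and SUVH5 are above 0 in LHS.

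Of the 19 genes of RNA-directed DNA methylation, 4 (21.1%) were lower in LHSR12 than in CTRL, near the 21.7% of all gene loci. With only LHSR12 and CTRL fitted, 2 were lower and 0 higher. In the fit of all libraries the 4 were NRPE1 (the large subunit of Pol V), DCL3 (which cuts the small RNA precursors), CLSY1 and DRD1 (both chromatin remodellers of the pathway). AGO9, an Argonaute known from reproductive tissue, was the 1 that was higher, with 157 and 134 scaled reads in LHSR12 and 4.06 and 25.7 in CTRL. NRPE1 and DCL3 had log2 differences of -0.66 and -0.64, NRPD1 (the large subunit of Pol IV), RDR2, AGO4 and DRM2 did not pass the test, and 9 of the 19 were higher in LHS and none lower. Of 7 genes of post-transcriptional silencing all were higher in LHS, among them AGO2 with 2459 and 2518 in LHS and 498 and 540 in CTRL; in LHSR12, 4 were higher and 1, RDR6, was lower. AGO7 differed by 0.77 in LHSR12, a call lost in 4 of 16 alternatives. AGO6 of the RNA-directed route had 490 and 457 in LHS and 122 and 104 in CTRL.

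Among 15 chromatin genes, 3 were called higher and 2 lower at the 12 h time point, and 6 higher and 7 lower at the end of the heat. The H2A.W histone gene HTA6, whose protein marks heterochromatin, had 346 and 349 scaled reads in LHSR12, 56.1 and 55.8 in LHS, and 736 and 858 in CTRL. HTA7, another H2A.W gene, differed by -0.72 in LHSR12. HTA12, also an H2A.W gene, went the other way, with 375 and 420 in LHSR12 and 295 and 325 in CTRL. Its log2 difference of 0.36 did not pass the test. AT2G30620, a gene with a linker histone domain per RefSeq, had 4741 and 4760 in LHSR12, 554 and 438 in LHS, and 4874 and 5008 in CTRL, so only its LHS libraries stood apart among these. AT1G06760, which has the same domain, had 416 and 328 in LHS and 2752 and 2755 in CTRL, and an annotated antisense transcript overlaps it, from which its reads may not be told apart. The 3 higher in LHSR12 were AT5G50780 (an ATPase gene per RefSeq), MORC1 (log2 difference 0.43) and HDA6 (0.28), a histone deacetylase gene. AT5G50780 had 1216 and 1199 in LHSR12, 2899 and 3426 in LHS, and 532 and 562 in CTRL. MORC6 and MOM1, which silence without a change of methylation, did not pass the test in LHSR12, with log2 differences of 0.34 and 0.21. Of 5 genes that remove or prevent methylation marks, the DNA demethylase gene ROS1 had 211 and 240 in LHSR12, 153 and 218 in LHS, and 964 and 1204 in CTRL, while the demethylase gene DML3 had 415 and 326 in LHSR12 and 94.8 and 85.8 in CTRL. ROS1 and DML2 were called higher in LHSR84 than in CTRL, as was DCL4 of the post-transcriptional group. All of these LHSR84 calls were lost when only LHSR84 and CTRL were fitted. Whether any of these genes bears on the 12 h loci was not tested.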

How the data were processed

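RNA was sequenced from 8 seedling libraries. The authors deposited a signal per locus and library, and every nonzero value was a whole multiple of 1 step per library (tolerance 0.001), so the values are reads divided by a library factor. Per the submitters' processing notes, the build was TAIR10 and the tools were DESeq2 1.14.1, HTSeq 0.9.1, STAR 2.5.3a and CASAVA, with no role given for any. Strand use and the treatment of reads with several matches, which elements often have, are not given in the sources used here. Element annotation, coordinates and sequences were not used here. Symbols came from RefSeq (TAIR10.1), which matched 53 of the 56 silencing genes.

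The test was limma 3.58.1 in R 4.3.3 (limma-trend, not robust, two-sided) on log2(value + 1), all 8 libraries in 1 fit, which was tested on simulated data. The 36 of 626 loci with a mean below 1 were not tested. Fold changes on this scale understate changes of low loci. Loci named were the 10 highest and the 10 with the largest ratio, up to 5 called each way in LHSR84 against LHS and in LHS against CTRL, the 3 longest runs, and the 3 loci on each side of each threshold. Genes named were a fixed set and the 5 largest rises and falls. The loci and lists were chosen with earlier results of these data known. Alternatives were other pseudocounts, filters and scalings, a replicate block, edgeR 4.0.16 quasi-likelihood on recovered reads of 7 libraries, only the 2 groups compared, and each library left out. Bounds use 3 reads per library as floor.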

Additional observations from a re-analysis of the deposited data

Results flagged for a closer look

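Of the silencing genes, 5 had opposite differences from CTRL in LHSR12 and in LHS, each called in both, and the difference between LHSR12 and LHS was itself called by limma. VIM1 differed by -2.93 between LHSR12 and LHS on the log2 scale (-0.94 in LHSR12 and 1.99 in LHS against CTRL). CLSY1 differed by -2.06 (-1.12 and 0.94), RDR6 by -2.04 (-0.84 and 1.20), DDM1 by -1.84 (-0.65 and 1.19) and CMT3 by -1.58 (-0.84 and 0.74), each pair again with LHSR12 before LHS. The call of CMT3 was lost in 5 of 16 alternatives in LHSR12 and in 5 in LHS, and that of DDM1 in LHSR12 in 7. ROS1 was higher in LHSR84 and lower in both earlier groups than in CTRL. Its difference was 3.33 between LHSR84 and LHS (0.78 and -2.55 against CTRL) and 3.04 between LHSR84 and LHSR12 (0.78 and -2.25 against CTRL). The call of ROS1 in LHSR84 was lost in 7 of 16 alternatives.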

How the results depend on the processing

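The loci named for the largest differences of LHSR84 from LHS and of LHS from CTRL kept direction and call in those comparisons under all 16 alternatives, 320 values in all. Other named loci were not followed one by one. Of the gene values, 917 were the same, 65 lost the call, 10 gained it and 0 reversed. With edgeR on 7 libraries the 12 h loci called were 47 higher and 73 lower in LHSR84 than in LHS, 106 higher and 15 lower in LHS than in CTRL, and 44 higher and 0 lower in LHSR84 than in CTRL. With only the 2 groups fitted, 34 were higher and 1 was lower in LHSR84 than in CTRL, and without a filter 1 was lower. That fit called 4 silencing genes higher and 8 lower in LHSR12 and 0 higher in LHSR84 than in CTRL. A minimum mean of 10 left 318 loci.

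With libraries left out, the rule chose 614 to 790 loci. The 12 h loci numbered 62 to 84 higher and 101 to 137 lower in LHSR84 than in LHS, 148 to 187 higher and 21 to 33 lower in LHS than in CTRL, and 33 to 68 higher and 0 to 2 lower in LHSR84 than in CTRL. Silencing genes numbered 23 to 28 higher and 8 to 11 lower in LHS, 6 to 9 higher and 8 to 17 lower in LHSR12, and 0 to 5 higher and 0 to 1 lower in LHSR84 than in CTRL. The share of all loci called also changed from fit to fit, so these counts are not set against other loci. The cause was not tested.

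Deviations of same-numbered libraries correlated between -0.061 and 0.040 across loci, so no shared effect of the replicate number was seen. Whether same-numbered libraries were grown or handled together is not stated. With the replicate number as a block, 76 of the 12 h loci were higher and 129 lower in LHSR84 than in LHS, 183 higher and 29 lower in LHS than in CTRL, and 58 higher and 1 lower in LHSR84 than in CTRL. The block gave 26 silencing genes higher and 10 lower in LHS, 8 and 15 in LHSR12, and 3 and 0 in LHSR84. Of all loci tested, it called 31.9% higher and 34.6% lower in LHSR84 than in LHS. Against CTRL it called 35% and 31% of all loci in LHS, 24.3% and 19.6% in LHSR12, and 8.09% and 4.5% in LHSR84. Depth limits the weak loci: 58 of those with no CTRL reads had an LHSR12 mean at or under the floor of 3 CTRL reads per library, so no fold is given for them.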
